A study of Mus musculus with 4 samples.

Results

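The aminoacyl-tRNA synthetase genes comprised 36 of the 53465 genes in the FPKM table, chosen by gene symbol, with earlier results of these data known. They were 20 genes for cytosolic enzymes, 15 genes for mitochondrial enzymes and *Lars2*, the mitochondrial leucyl-tRNA synthetase, which was kept apart because rRNA reads can fall on it. All 36 passed the filter on low values (0.1 FPKM or more as the mean of the 4 libraries), as did 20116 genes in all. FPKM counts fragments per kilobase of exon, scaled by a divisor for each library.

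According to the study, the RNA came from cultured mouse female germline stem cells (FGSCs), a line of ovarian origin labelled as germ stem cells. FGSCs with a control shRNA (shNC, 2 libraries) were compared with FGSCs carrying an shRNA against *Nat10* (shNAT10, 2 libraries), the acetyltransferase that places N4-acetylcytidine (ac4C) on RNA. Both groups went through lentiviral infection and drug selection, and the study kept its mice on a C57BL/6J background. The strain and age of the animals behind the cultured line are not given in the sources used here. The comparison asks how the RNA levels of synthetase genes differed when *Nat10* was knocked down. The study lists several shRNAs against *Nat10*. Which of them these libraries carry, and whether a group is 1 clone or a pool, is not given in the sources used here, so effects of the knockdown and of a single shRNA cannot be told apart.

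An aminoacyl-tRNA synthetase joins 1 amino acid to its tRNAs, the step in which the genetic code is read into amino acids. Cytosolic and mitochondrial translation mostly use separate enzymes, all encoded in the nucleus, while *Gars* and *Kars* make both forms from 1 gene. Several cytosolic enzymes are bound together in the multisynthetase complex. When uncharged tRNA accumulates, the kinase GCN2 slows translation and raises the transcription factor ATF4, which is known to switch on many cytosolic synthetase genes together with amino acid transporters and biosynthetic enzymes. NAT10, with its adaptor THUMPD1, acetylates serine and leucine tRNAs, the substrates of the enzymes encoded by *Sars* and *Lars*.

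Promoters are shown first because the cytosolic genes were grouped by ATF4. ATF4 binds DNA with C/EBP proteins at composite elements that contain TGATGNAA, and this motif was searched on both strands from 250 bases before to 50 bases after each RefSeq start (GRCm38.p6). Of the 13 cytosolic genes matched to a promoter, 5 (38.5%) held the motif. It was found in 0 of the 13 matched mitochondrial genes, *Lars2* not counted, and in 1219 of 27025 genes of the promoter table (4.51%). A 30-base window around 1 match per gene, the one nearest the start, is printed 5′ to 3′ on the strand of the gene, with the motif in capitals. In *Yars* the motif lies on the strand of the gene, and in the others on the opposite strand, so that it reads as TTNCATCA.
*Aars* (alanine), from base 10 after the start, chr8:111033840-111033869, plus strand: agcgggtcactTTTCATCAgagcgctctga
*Gars* (glycine), 30 bases before the start, chr6:55037960-55037989, plus strand: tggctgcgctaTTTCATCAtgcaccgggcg
*Iars* (isoleucine), from base 8 after the start, chr13:49682126-49682155, plus strand: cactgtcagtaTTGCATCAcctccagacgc
*Tars* (threonine), 15 bases before the start, chr15:11399655-11399684, minus strand: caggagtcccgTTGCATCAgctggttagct
*Yars* (tyrosine), from base 4 after the start, chr4:129189895-129189924, plus strand: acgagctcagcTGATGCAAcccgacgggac
The 5 genes are all usually listed as ATF4 targets. A match of these letters describes the window only, and binding was not measured here.

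The libraries held 11057915 to 14902416 fragments, recovered from the FPKM values, and p-values measure the spread between 2 libraries per group. *Nat10* was at 7.79 and 5.42 in shNC against 2.95 and 3.04 FPKM in shNAT10 (log2 fold change −1.09, SE 0.21, limma adjusted p = 0.123). The 5 loci that each held at least 1% of the FPKM total of a library took 33.3% to 43.6% of the fragments in shNC and 21.8% to 23.8% in shNAT10. Defining germline markers were near absent: *Dazl*, *Dppa3*, *Pou5f1* and *Tfap2c* were at 0 in all 4 libraries, and *Ddx4* was at 0 in 3 of them. Of 8 germline markers *Ifitm3* was the only one to pass the filter. The study reported *Oct4*, *Ddx4*, *Fragilis* and *Blimp1* RNA and DDX4 and OCT4 protein in its FGSCs. The name FGSC is therefore used here as a label. Leukocyte markers were present, with all 6 detected and *Coro1a* at 137 to 164 FPKM. The 9 mast cell markers were divided. *Cpa3*, a mast cell protease, was at 245 to 272 FPKM, *Gata2* at 31.6 to 41.5 FPKM and *Kit* at 14.5 to 24.5 FPKM. *Fcer1a* and *Tpsb2* were at 0 in all 4 libraries and *Mcpt4* in 3 of them. *Ms4a2*, *Cma1* and *Hdc* reached at most 3.77, 0.585 and 0.160 FPKM. In bulk RNA, fewer cells of a type and less RNA per cell cannot be told apart.

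The cytosolic synthetase genes were lower in shNAT10 FGSCs in a minority of cases and higher in none. Between shNC and shNAT10, 4 of the 20 cytosolic genes fell past the threshold (*Wars*, *Lars*, *Cars* and *Nars*), 0 rose and 16 did not pass. Passing required a change of more than 1.2 times and an unadjusted limma p of 0.05 or less, which 7.83% of all tested genes passed as lower and 8.41% as higher. No cytosolic gene had an adjusted p under 0.05 (limma, the smallest was 0.131), against 88 of all genes tested. At an unadjusted p of 0.05 or less 6 cytosolic genes passed, all with negative values, and limma-voom gave 3 an adjusted p under 0.05 (*Wars*, *Lars* and *Nars*), as it did for 1466 of all genes tested. Precision matters for this reading, because among the 3201 genes with as many fragments as the cytosolic members (2271 to 49012 over the 4 libraries) 14.5% were called lower and 12% higher. Set against genes of like depth, 4 of 20 is near the background.

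*Wars*, the tryptophanyl-tRNA synthetase (chr12:108860030-108894174), had the largest fall of the cytosolic genes. Its FPKM was 30.6 and 26.8 in shNC against 17.4 and 20.1 in shNAT10, with no overlap between the groups. It fell by 0.61 on the log2 scale (SE 0.12, limma adjusted p = 0.131). In limma-voom on the recovered fragments its adjusted p was 0.00246.

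*Lars* charges leucine tRNAs, among them ac4C-bearing ones, as a member of the multisynthetase complex. Its FPKM was 71.4 and 65.9 in shNC against 58.5 and 50.8 in shNAT10 (log2 fold change −0.33, SE 0.11, limma adjusted p = 0.250). *Nars*, the asparaginyl-tRNA synthetase, was the most abundant of the cytosolic synthetase RNAs, with 234 and 248 in shNC against 197 and 202 FPKM in shNAT10 (log2 fold change −0.27, SE 0.09, limma adjusted p = 0.242). *Cars*, the cysteinyl-tRNA synthetase (chr7:143557230-143600090), was at 16.6 and 15.5 in shNC against 12.3 and 13.8 FPKM in shNAT10 (log2 fold change −0.30, SE 0.11, limma adjusted p = 0.28). The groups did not overlap for any of these genes. The calls of *Lars*, *Nars* and *Cars* were lost in 3, 3 and 4 of the 10 alternatives with all libraries, and the call of *Wars* in none of them. With 1 library left out, *Wars* was called in 2 of 4 fits, *Lars* and *Nars* in 1 and *Cars* in 0.

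*Gars*, for glycine, sat at the edge of the threshold. Its FPKM was 84.4 and 82.6 in shNC against 67.7 and 71.6 in shNAT10, with no overlap (log2 fold change −0.26, SE 0.08, limma adjusted p = 0.237). Its unadjusted p passed but the fold change missed 1.2 by a small margin, so *Gars* was not called. *Eprs*, which carries the glutamate and proline activities in 1 protein, likewise had a p under the threshold and too small a fold change, at 20.5 and 20.02 in shNC against 17.0 and 17.3 FPKM in shNAT10 (log2 fold change −0.24).

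*Sars*, the seryl-tRNA synthetase and the other enzyme of ac4C-bearing tRNAs, varied most between replicates of the cytosolic genes. Its FPKM was 42.1 and 71.8 in shNC against 45.3 and 58.0 in shNAT10, so the groups overlapped, and its 95% confidence interval ran from −0.87 to 0.66 on the log2 scale. A change of *Sars* was thus not detectable with these libraries. *Thumpd1*, the adaptor for tRNA acetylation, was at 30.3 and 32.6 in shNC against 31.5 and 32.5 FPKM in shNAT10 (log2 fold change 0.02).

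Phenylalanyl-tRNA synthetase is built from 2 subunits encoded by separate genes. *Farsa*, the alpha subunit, was at 9.32 and 9.37 in shNC against 9.43 and 10.5 FPKM in shNAT10 (log2 fold change 0.09). *Farsb*, the beta subunit, was at 15.6 and 20.4 in shNC against 15.8 and 16.8 FPKM in shNAT10 (log2 fold change −0.13). The ratio of *Farsb* to *Farsa* was 1.67 and 2.17 in shNC and 1.68 and 1.59 in shNAT10, so shNC-2 alone stood apart.

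The other end of the cytosolic genes was held by *Dars*, *Vars* and *Hars*, the enzymes for aspartate, valine and histidine. *Dars* was at 45.8 and 49.6 in shNC against 53.9 and 52.0 FPKM in shNAT10 (log2 fold change 0.15). *Vars* was at 13.9 and 13.5 FPKM against 14.5 and 15.8 FPKM (0.14), and *Hars* at 40.4 and 37.8 FPKM against 41.3 and 44.5 FPKM (0.13). None of the 3 passed the test, although the groups were fully apart in each. The remaining cytosolic genes, *Tars*, *Aars*, *Yars*, *Iars*, *Rars*, *Kars*, *Qars* and *Mars*, had log2 fold changes from −0.28 (*Tars*) to −0.03 (*Mars*) and were not called.

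Across the 20 cytosolic genes, 16 had a log2 fold change below 0. The groups were fully apart, with neither shNAT10 library inside the range of shNC, and shNAT10 lower in 12 genes and with shNAT10 higher in 4, and they overlapped in 4. Of all genes tested, 24.1% were fully apart with shNAT10 lower and 23.9% with shNAT10 higher. The median log2 fold change of the cytosolic genes was −0.15, against 0.01 over all genes tested. The median difference between replicates was −0.03 within shNC and 0.08 within shNAT10. Summed over the 20 genes, the FPKM was 948 and 966 in shNC and 827 and 860 in shNAT10. When single libraries were left out, the median stayed below 0, from −0.24 to −0.09, while the number called lower ranged from 1 to 4.

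**Figure D1:**
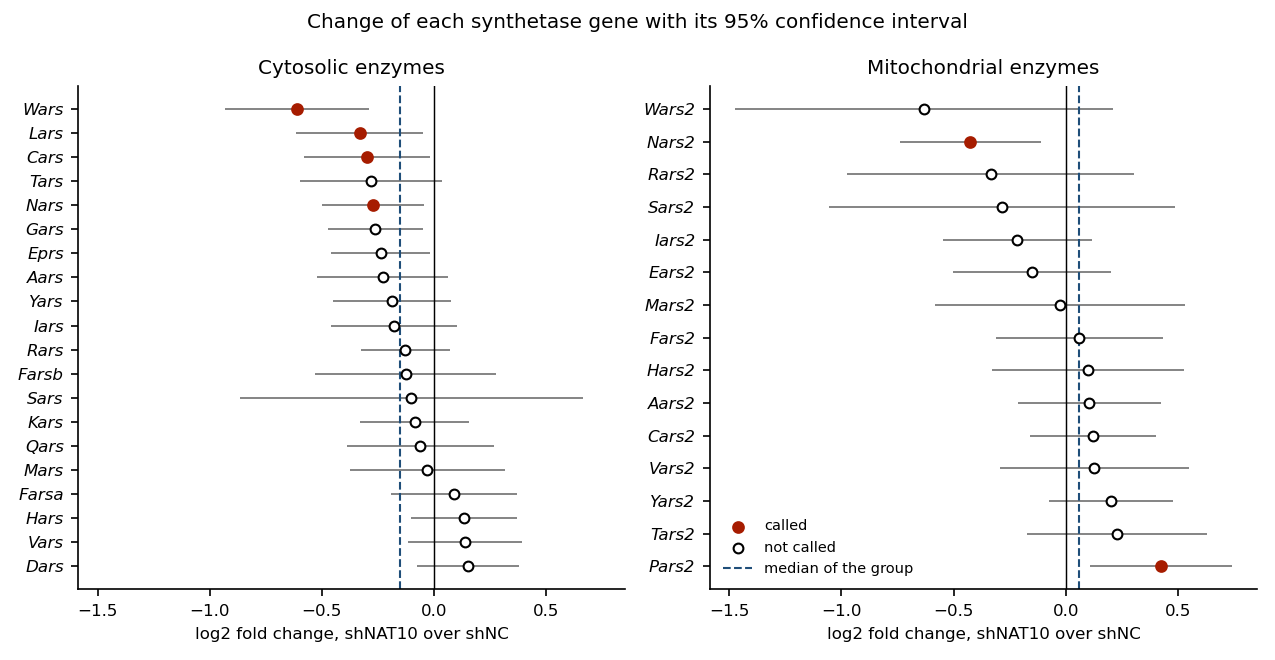
The plot shows the log2 fold change of shNAT10 over shNC on the horizontal axis for each cytosolic gene (left) and each mitochondrial gene without *Lars2* (right), with bars for the 95% confidence interval from limma and n = 2 libraries per group. Filled points were called, open points were not, and the dashed lines are the group medians, at −0.15 and 0.06.

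The mitochondrial synthetase genes did not move to one side. Of the 15, 1 fell past the threshold (*Nars2*), 1 rose (*Pars2*) and 13 did not pass, beside the 7.83% and 8.41% of all tested genes. A log2 fold change below 0 was found in 7 and above 0 in 8, the median was 0.06, and the summed FPKM was 70.2 and 64.6 in shNC and 66.9 and 68.7 in shNAT10. The groups were fully apart with shNAT10 lower in 4 genes and with shNAT10 higher in 5, beside 24.1% and 23.9% of all genes. These genes had 182 to 2507 fragments over the 4 libraries and a median SE of 0.142, against 0.106 for the cytosolic genes, so smaller changes could be seen in the cytosolic group than in the mitochondrial one. The difference between the compartments was not tested.

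*Nars2*, the mitochondrial asparaginyl-tRNA synthetase (chr7:96951505-97064758), was at 4.73 and 4.93 in shNC against 3.56 and 3.59 FPKM in shNAT10 (log2 fold change −0.43, SE 0.12, limma adjusted p = 0.213). *Pars2*, the prolyl-tRNA synthetase of mitochondria (chr4:106651069-106655282), was at 4.18 and 3.97 in shNC against 5.72 and 5.31 FPKM in shNAT10 (log2 fold change 0.43, SE 0.12, limma adjusted p = 0.214). Both were called in all 10 alternatives that kept the 4 libraries. Each was called in 2 of the 4 fits with a library left out.

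*Wars2*, for mitochondrial tryptophan, had the largest negative value at this pseudocount but rested on 27 to 54 fragments a library. Its FPKM was 0.773 and 0.723 in shNC against 0.362 and 0.549 in shNAT10 (log2 fold change −0.63). It was −0.27 with a pseudocount of 1, behind *Nars2* (−0.35) and *Rars2* (−0.29), and −0.39 without shNAT10-1. *Rars2*, for arginine, was at 8.45 and 5.44 in shNC against 5.78 and 4.97 FPKM in shNAT10 (log2 fold change −0.33), and its groups overlapped through shNC-2. The value was −0.02 without shNC-1 and −0.65 without shNC-2. *Tars2*, for threonine, was at 4.65 and 4.20 in shNC against 4.72 and 5.73 FPKM in shNAT10 (0.23, and 0.09 to 0.37 with 1 library left out). *Yars2*, for tyrosine, was at 7.84 and 7.25 in shNC against 8.58 and 8.80 FPKM in shNAT10 (0.20). None of these 4 passed the test. The others, *Sars2*, *Iars2*, *Ears2*, *Mars2*, *Fars2*, *Hars2*, *Aars2*, *Cars2* and *Vars2*, ranged from −0.28 to 0.13.

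Counting *Farsa* and *Farsb* each against *Fars2*, the cytosolic and the mitochondrial enzyme of 1 amino acid had values of the same sign in 9 of 14 pairs and of opposite sign in 5. Both values were negative for tryptophan (*Wars* −0.61, *Wars2* −0.63), asparagine (*Nars* −0.27, *Nars2* −0.43), arginine (*Rars* −0.13, *Rars2* −0.33), isoleucine (*Iars* −0.18, *Iars2* −0.22), serine (*Sars* −0.10, *Sars2* −0.28) and methionine (*Mars* −0.03, *Mars2* −0.02). Both were positive for histidine (*Hars* 0.13, *Hars2* 0.10), valine (*Vars* 0.14, *Vars2* 0.13) and *Farsa* with *Fars2* (0.09 and 0.06). For threonine (*Tars* −0.28, *Tars2* 0.23), cysteine (*Cars* −0.30, *Cars2* 0.12), tyrosine (*Yars* −0.19, *Yars2* 0.20) and alanine (*Aars* −0.23, *Aars2* 0.11) the cytosolic value was negative and the mitochondrial one positive, as for *Farsb* (−0.13) with *Fars2*. In every pair but that of asparagine at least 1 of the genes did not pass the test, so these are signs of values and not changes.

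FPKM, being per kilobase, also allowed the levels to be set in order. *Nars* came first in every library and made up 23.5% to 25.6% of the cytosolic sum, followed by *Rars*, for arginine, with a mean of 90.8 FPKM over the 4 libraries, and *Gars* with 76.6 FPKM. The lowest cytosolic gene was *Farsa* (9.32 to 10.5 FPKM) and the highest mitochondrial one was *Rars2* in shNC-1 and *Yars2* in the other libraries (7.25 to 8.80 FPKM for *Yars2*), so every cytosolic member lay above every mitochondrial member in each library, *Lars2* not counted. The lowest was *Wars2*, with a mean of 0.60 FPKM. Neighbours in this order mostly overlapped in range. A clear gap to the next gene was found below *Nars*, *Rars*, *Mars*, *Kars*, *Farsa*, *Yars2* and *Vars2*. The mean log2(FPKM + 0.1) of the cytosolic genes exceeded that of the mitochondrial genes by 2.99 and 3.12 in shNC and 2.94 and 2.96 in shNAT10.

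**Figure D2:**
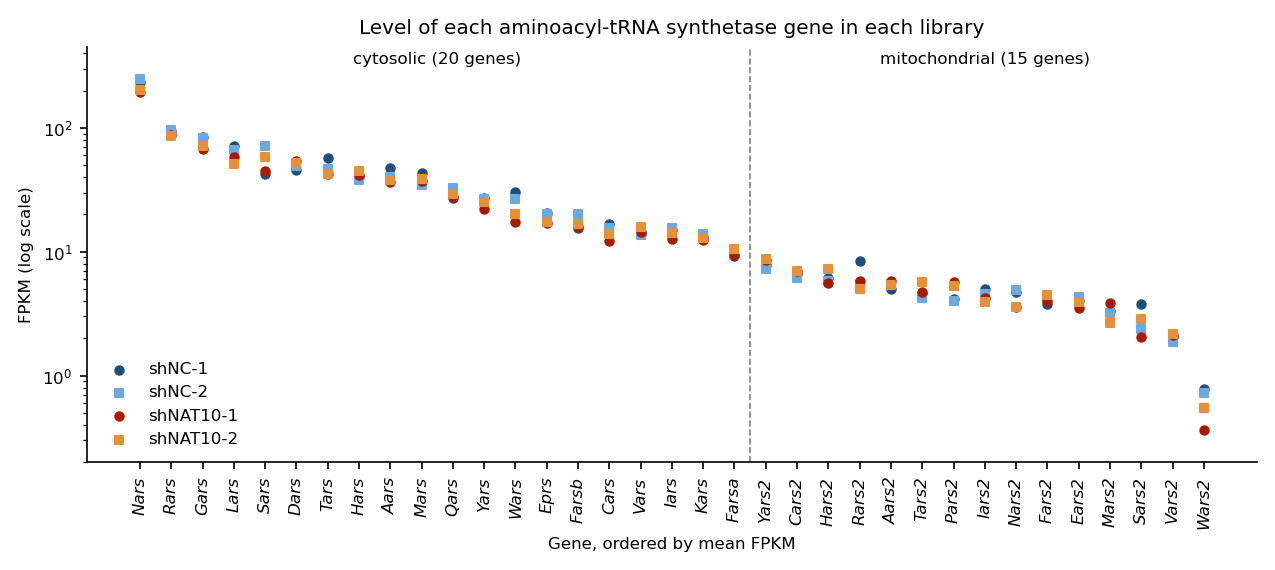
The plot shows the FPKM of the 35 genes without *Lars2* in each of the 4 libraries on a log scale, ordered by mean, with cytosolic genes left of the dashed line. *Nars* stands apart at 197 to 248 FPKM, and every point of a cytosolic gene lies above those of the mitochondrial genes in its library.

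Grouped by protein assembly, the 8 genes of the multisynthetase complex had 1 gene called lower (*Lars*) and a median of −0.11, and the other 12 cytosolic genes had 3 called lower and a median of −0.21. By the 2 structural classes of catalytic domain, the 9 class I cytosolic genes had 3 called lower (median −0.18) and the 10 class II genes had 1 (median −0.11), with *Eprs* holding both classes. These counts stand beside 7.83% called lower over all genes and 14.5% at like depth. With a library left out, the class II median ranged from −0.21 to 0.01. The genes for the non-catalytic scaffold of the complex did not move together. *Aimp1* was at 23.7 and 28.6 in shNC against 19.7 and 19.9 FPKM in shNAT10 and fell by 0.39 on the log2 scale (SE 0.12, limma adjusted p = 0.232). *Aimp2* was at 5.40 and 5.35 in shNC against 6.60 and 7.14 FPKM in shNAT10 and rose by 0.35 (SE 0.11, limma adjusted p = 0.247). *Eef1e1*, the third scaffold gene, was not called (25.5 and 24.3 FPKM against 21.6 and 21.01 FPKM, −0.22).

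Of the groupings tried, the list of ATF4 targets gave the widest split of medians among the cytosolic genes. Of the 13 genes usually listed as such, 4 were called lower and 0 higher, 12 had a negative value and 10 were fully apart with shNAT10 lower, with a median of −0.24. Over all genes tested 7.83% were called lower and 24.1% were fully apart with shNAT10 lower, and 14.5% were called lower among genes with the fragment totals of the cytosolic members. Their summed FPKM was 703 and 707 in shNC and 580 and 608 in shNAT10. Of the other 7 cytosolic genes 0 were called, 4 had a negative value, the median was −0.06, and the summed FPKM was 245 and 259 in shNC and 248 and 253 in shNAT10. When single libraries were left out, the medians ranged from −0.28 to −0.22 for the listed genes and from −0.13 to 0.08 for the others. The difference between the groups of genes is a description, because the list was chosen with results of these libraries known.

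**Figure D3:**
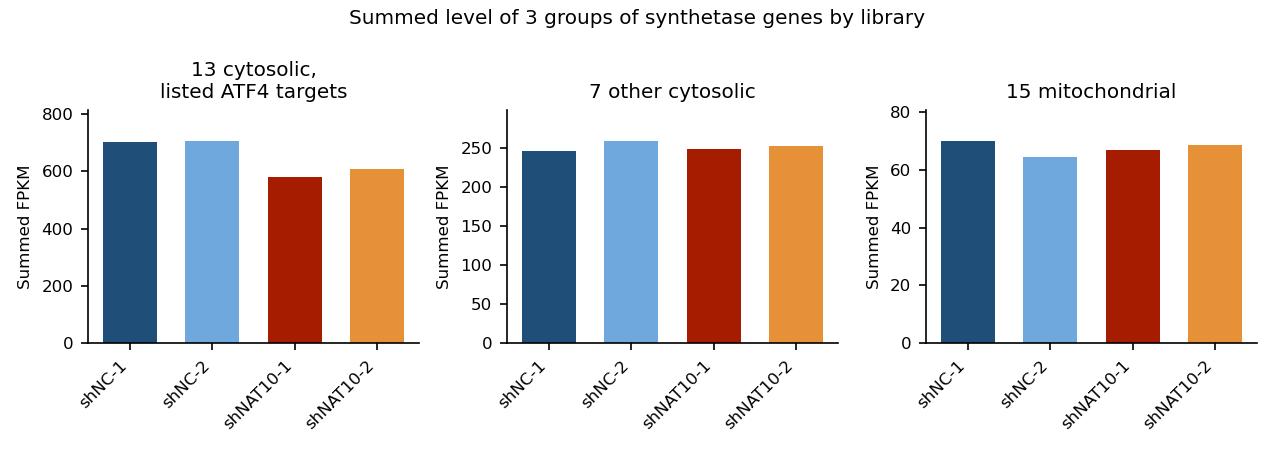
The bars show the summed FPKM of 3 groups of genes in each library, each panel with its own scale from 0. The 13 listed ATF4 targets were lower in both shNAT10 libraries (580 and 608) than in both shNC libraries (703 and 707), while the sums of the other 7 cytosolic genes (245 to 259) and of the 15 mitochondrial genes (64.6 to 70.2) overlapped between the groups.

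The 5 cytosolic genes with the promoter motif (*Aars*, *Gars*, *Iars*, *Tars* and *Yars*) had log2 fold changes from −0.28 to −0.18 with a median of −0.23, and 5 of 5 were negative. The 4 called cytosolic genes (*Cars*, *Lars*, *Nars* and *Wars*) were not matched to a promoter, so neither set could hold a called gene. The 8 cytosolic genes whose promoters lacked these letters had a median of −0.07 and ran from −0.24 to 0.15, and 6 of 8 were negative. Over all tested genes with a promoter, the median was −0.03 for the 322 with the motif and 0.00 for the 10692 without it. Values were negative for 169 of the 322 and for 5291 of the 10692.

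Around amino acid sensing, the largest changes were among the ATF4 targets, while the 5 sensing genes had a median of −0.09. *Atf4* itself was at 221 and 201 in shNC against 144 and 130 FPKM in shNAT10, with no overlap (log2 fold change −0.62, SE 0.10, limma adjusted p = 0.103). Of the 5 sensing genes found, *Impact*, a GCN2 inhibitor, was also called lower (26.5 and 28.7 FPKM against 22.6 and 22.8 FPKM, −0.28), and *Eif2ak4*, which encodes GCN2, was not called (0.02). Of 25 ATF4 targets other than synthetases, 16 were called lower and 0 higher, against 7.83% and 8.41% of all genes tested, with a median of −0.43 and 1 gene with an adjusted p under 0.05. That gene was *Ddit3*, a transcription factor of the stress response, at 39.5 and 48.4 in shNC against 16.9 and 17.6 FPKM in shNAT10 (log2 fold change −1.34, SE 0.13, limma adjusted p = 0.0489). *Chac1*, which degrades glutathione, was at 26.7 and 26.6 in shNC against 14.8 and 13.8 FPKM in shNAT10 (−0.89). *Atf3*, *Nupr1* and *Ddit4* fell by 1.11, 0.86 and 0.62. *Cth* fell by 1.47, on 27 to 104 fragments a library, and ranged from −1.88 to −1.05 with 1 library left out. *Cth* and *Ddit4* were each called in 2 of the 4 fits with a library left out. *Asns*, the asparagine synthetase, was not called (34.8 and 39.5 FPKM against 30.3 and 32.3 FPKM, −0.24), and *Phgdh* and *Psat1* of serine synthesis had positive values (0.20 and 0.08) and were not called.

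Leukocyte markers also moved with these genes: of 6, 4 were called lower and 0 higher (7.83% and 8.41% of all genes), their summed FPKM was 231 and 261 in shNC and 203 and 213 in shNAT10, and none was at 0. *Ptprc*, the pan-leukocyte marker, was at 15.5 and 15.4 in shNC against 15.3 and 15.3 FPKM in shNAT10, and *Coro1a* had a log2 fold change of −0.04, neither of them called. *Fcer1g*, the signalling chain of Fc receptors, was at 43.4 and 47.8 in shNC against 21.9 and 23.4 FPKM in shNAT10 (log2 fold change −1.01, limma adjusted p = 0.0489). *Laptm5* and *Tyrobp* fell by 0.64 and 0.44. *Cd52* was called lower on 8 to 24 fragments a library, at 0.861 and 1.70 in shNC against 0.604 and 0.440 FPKM in shNAT10. The mast cell list of 9 had summed levels of 313 and 323 in shNC against 323 and 318 FPKM in shNAT10, with *Fcer1a* and *Tpsb2* at 0. *Cpa3* made up most of that sum, and within the list *Kit* (−0.60) and *Gata2* (−0.33) were called lower and *Ms4a2* (2.12) higher. Of the 6 fibroblast markers 5 were tested, of which *Pdgfra* (0.83) and *Col3a1* (0.98) were called higher and 0 lower. Their summed FPKM was 51.7 and 44.8 in shNC against 60.7 and 51.4 in shNAT10, with *Lum* at 0. The part of other cell types in the synthetase values was not tested.

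**Figure D4:**
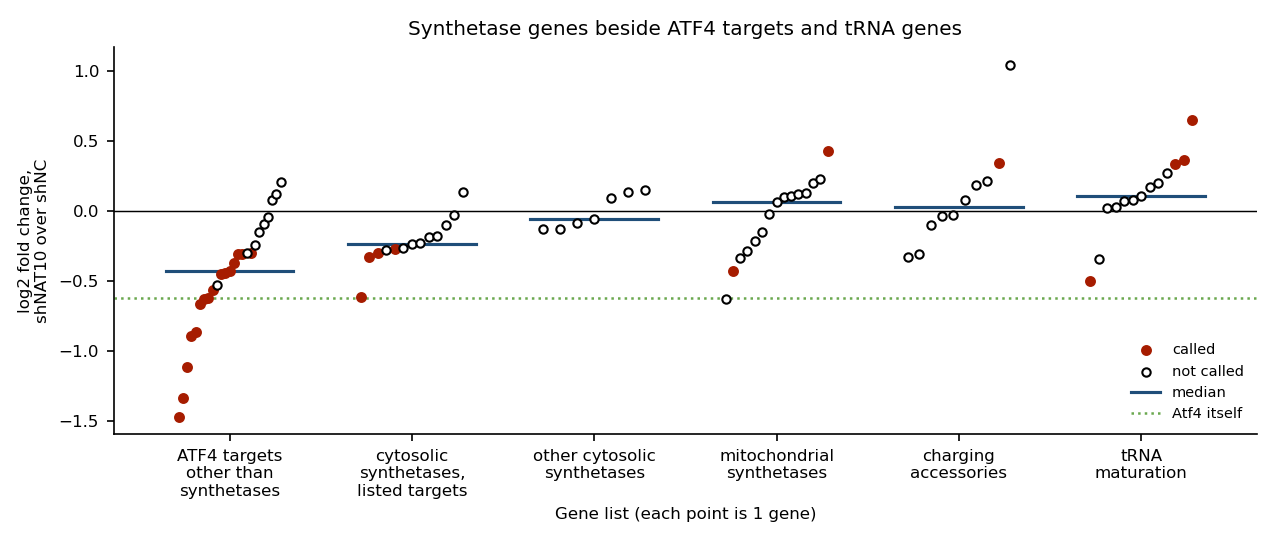
The plot shows 1 point per gene, with the log2 fold change of shNAT10 over shNC on the vertical axis, for ATF4 targets, 3 groups of synthetase genes and 2 lists of tRNA genes. Filled points were called, the blue bars are medians and the dotted line marks *Atf4* at −0.62, and the medians run from −0.43 (ATF4 targets) over −0.24 (listed cytosolic synthetases) to 0.10 (tRNA maturation).

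Genes that act on tRNA before or beside charging were counted in the same way, beside 7.83% called lower and 8.41% called higher of all genes tested. Of the 10 accessory genes of charging, 0 were called lower and 1 higher (*Dtd2*, a deacylase that proofreads charged tRNA, 0.34), with a median of 0.02. Of the 13 genes of tRNA maturation and export, 1 was called lower and 3 higher, with 11 values above 0 and a median of 0.10, which ranged from −0.01 to 0.22 with 1 library left out. *Xpot*, the tRNA export receptor, was at 48.4 and 36.3 in shNC against 29.1 and 30.2 FPKM in shNAT10 (log2 fold change −0.50, SE 0.16, limma adjusted p = 0.242). Its value ran from −0.71 to −0.29 with 1 library left out. *Tsen34*, a subunit of the tRNA splicing endonuclease, was at 13.2 and 14.0 in shNC against 21.9 and 20.8 FPKM in shNAT10 (log2 fold change 0.65, SE 0.09, limma adjusted p = 0.084). *Trnt1*, which adds the CCA end, and *Pop1* of RNase P rose by 0.34 and 0.36 on the log2 scale. With 1 library left out, *Trnt1* was called in 1 of 4 fits and *Dtd2* and *Pop1* in 0. *Tsen34*, *Atf4*, *Ddit3*, *Chac1*, *Atf3* and *Nupr1* were called in all 14 alternatives, while *Aimp1*, *Aimp2*, *Dtd2*, *Xpot*, *Trnt1*, *Pop1* and *Impact* each lost the call in at least 1 alternative with all libraries and at least 2 with a library left out.

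*Lars2* stood far above every other member. Its FPKM was 1267 and 642 in shNC against 403 and 500 in shNAT10, which is 95.8 to 272 times the median of the other mitochondrial enzymes in the same library. It took 0.507% to 1.11% of all fragments. The log2 fold change was −1.01 (SE 0.35, limma adjusted p = 0.273), past the threshold as reported and in 7 of the 10 alternatives with all libraries, and it ranged from −1.50 to −0.52 with 1 library left out, −0.52 being the value without shNC-1. *Gm42418*, a locus known to collect rRNA reads, ran in the same order of libraries, at 160369 and 97143 in shNC against 41240 and 50328 FPKM in shNAT10. So did *CT010467.1*, annotated as rRNA, at 61818 and 42337 FPKM against 20026 and 21974 FPKM. *Gm42418* lies within *CT010467.1* on the opposite strand of chromosome 17. Without a stated strand setting their reads cannot be told apart, so these loci are not separate observations. The part of rRNA reads in the *Lars2* value was not tested. With *Lars2* included, the summed FPKM of the mitochondrial enzymes would have read 1337 and 707 in shNC against 470 and 569 in shNAT10.

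**Figure D5:**
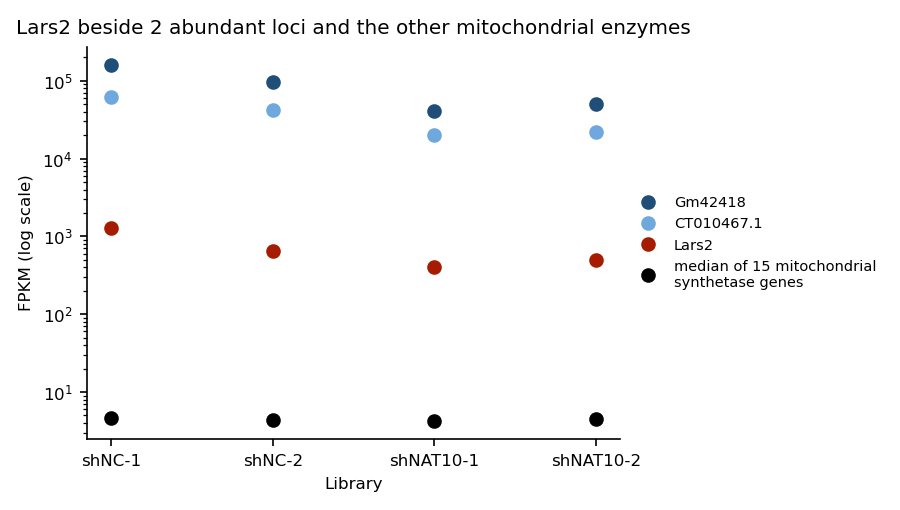
The plot shows the FPKM on a log scale in each library for *Gm42418*, *CT010467.1*, *Lars2* and the median of the 15 other mitochondrial synthetase genes. *Lars2* (403 to 1267 FPKM) lies between the abundant loci and the enzymes, and is highest in shNC-1 and lowest in shNAT10-1, as both loci are. These loci overlap on the genome. The median of the enzymes stays between 4.20 and 4.65 FPKM.

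Some members share exon bases with other genes in GENCODE M21, and without a stated strand setting such reads cannot be told apart. The largest shares were *Iars2* with *Rab3gap2* on the opposite strand (22.9% of its exon bases), *Aars* with *Exosc6* on the same strand (14.3%) and *Farsb* with *Sgpp2* (9.47%). *Hars* and *Hars2* share 195 exon bases, and *Mars* shares 68 with *Ddit3*, the ATF4 target named above. Of the called members, *Cars* shares 211 bases (3.21%) and *Nars2* 284 bases (4.08%), while *Wars*, *Lars*, *Nars* and *Pars2* share none. *Iars* has a processed pseudogene of near-identical sequence, *Gm4849*, listed at 0 in all 4 libraries.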

How the data were processed

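RNA of shNC and shNAT10 FGSCs, 2 libraries each, was sequenced in paired-end mode, and libraries were grouped by the sample labels. The methods describe rRNA depletion and the labels Oligotex mRNA isolation. According to the submitters' processing notes, cutadapt, HISAT2 and DESeq2 were used on mm10. Versions, counting program, annotation and strand setting are not given in the sources used here. The authors deposited FPKM for 53465 genes, and a second table with their own fold changes and p-values, which was not used. Columns of single libraries left out numbered 0.

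Genes averaging 0.1 FPKM or more (20116) were put on the log2(FPKM + 0.1) scale and tested with limma 3.58.1 in R 4.3.3 (lmFit, eBayes with trend), two-sided, with Benjamini-Hochberg adjustment over all genes tested. Fold changes on this scale understate those of low genes. A call needed more than a 1.2-fold change and an unadjusted p of 0.05 or less, the threshold of the study. An exact permutation test of 2 against 2 libraries cannot go below p = 0.3333. Whole fragments were recovered from FPKM, GENCODE M21 exon lengths and the step of each library (96.0% to 96.6% of values under 50 fragments were within 0.02 of a whole number). Fragment numbers by themselves show counting error only, while limma-voom on them also uses the spread between libraries. Near-identical copies were searched with BLAST 2.17.0 (at least 95% identity over 500 bases). Promoters came from RefSeq (GRCm38.p6), matched by symbol or synonym for 13 cytosolic genes, 13 mitochondrial genes and *Lars2*. Python 3.11.15 with pandas 2.3.3 and matplotlib 3.10.9 served for the other steps, and the fit was tested on simulated data. Some items are not reported here.

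The members, lists and tests were chosen with earlier results of these data known. Given in full were all called members, the 3 highest and 3 lowest fold changes of each compartment, *Gars*, *Sars*, *Lars*, *Farsa*, *Farsb* and *Lars2*, and, outside the members, *Nat10* and the scaffold genes. Up to 6 called genes of lowest p per list were named, some by fold change alone. *Eprs*, *Thumpd1*, *Asns*, *Phgdh*, *Psat1*, *Eif2ak4*, *Gm42418*, *CT010467.1* and single markers were added once their values were known. The motif was also chosen then. Alternatives covered a pseudocount of 1 or 0.01, no filter or a filter at 1 FPKM, 3 other scalings (median-ratio, equal-total, quantile), no trend, a replicate block, limma-voom on recovered fragments, and leaving out single libraries.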

Additional observations from a re-analysis of the deposited data

How the results depend on the processing

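The median of the cytosolic genes stayed below 0 in all 14 alternatives (−0.241 to −0.0917 with 1 library left out), and the number called higher stayed at 0. The number called lower, 4 with all libraries and settings as reported, was 2 without a filter on low values (*Cars* and *Wars*), 1 without the trend and 1 with libraries set to equal FPKM totals once the 5 most abundant loci were left out (*Wars* each time), 3 under quantile normalization and 5 with limma-voom, which added *Tars*. With 1 library left out it ranged from 1 to 4, and the genes changed: *Lars* without shNAT10-1, *Gars*, *Wars* and *Yars* without shNAT10-2, *Farsb* and *Nars* without shNC-1, and *Aars*, *Gars*, *Tars* and *Wars* without shNC-2. Among the mitochondrial genes, limma-voom called 2 lower (*Wars2* beside *Nars2*), and leaving out a library gave 0 to 2 lower (0 without either shNAT10 library, and *Rars2* beside *Nars2* without shNC-2) and 0 to 1 higher (0 without shNAT10-1 or shNC-2), with medians from −0.0154 to 0.0619. *Wars2* left the fit at a mean FPKM of at least 1. *Nars* moved to −0.43 under quantile normalization. The sign changed for *Mars* under quantile normalization (0.0082) and for *Mars2* under equal totals (0.0011), and with a library left out for *Farsb* (−0.318 to 0.0636), *Mars* (−0.19 to 0.13), *Qars* (−0.201 to 0.0798), *Sars* (−0.49 to 0.28), *Fars2* (−0.0306 to 0.153), *Hars2* (−0.0862 to 0.284), *Mars2* (−0.28 to 0.23) and *Sars2* (−0.606 to 0.0384). The cause was not tested. Over all genes, a limma adjusted p under 0.05 was reached by 88 genes as reported and by 88 with median-ratio rescaling. It was reached by 0 with pseudocounts of 1 or 0.01, without the trend or with the replicate block, and by 36 without a filter. The number was 147 with equal totals, 151 under quantile normalization, 296 at a mean FPKM of at least 1 and 1466 with limma-voom.

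The replicate numbers did not pair the libraries (r = 0.0071 of the deviations from the group means over 20116 genes, with 2 numbers), and with the replicate number as a block 3 cytosolic genes were called lower, without *Cars*, with the median unchanged at −0.15. With 2 libraries a group, a lone library in a leave-one-out fit is assumed to vary like the others.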
